A study of Mus musculus with 16 samples.

Results

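The comparison described here is that of wild-type (WT) mouse CD4+ T cells cultured with interleukin-6 (IL-6) alone against WT cells kept in medium, over all named genes on the array. Its members were chosen by the sample titles and are 4 of the 16 Affymetrix arrays of the series, 2 with IL-6 and 2 with medium, numbered replicate 1 and replicate 2 in each group. Per the labels, T cells that were CD44- and CD62L+, the surface state of naive cells, were sorted and stimulated with anti-CD3 and anti-CD28 antibodies over 3 days, and IL-6 was given at 10 ug/ml, a unit printed as the labels write it although cytokines are more usually given in ng/ml. The WT cells carried STAT3floxed alleles and no Cre. For comparison stand the same cultures of STAT3-deficient cells, which carried CD4 Cre and the STAT3floxed alleles, so that the deletion depended on a Cre that the labels tie to CD4, and WT cultures that held TGFb at 2.5 ug/ml (the same unit as labelled) with or without IL-6. The labels give neither the age nor the sex of the mice and do not say how many mice gave each culture, so the p-values reflect the spread among these samples alone.

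IL-6 binds its receptor chain IL-6R (Il6ra) and the shared signalling chain gp130 (Il6st), whose JAK kinases phosphorylate STAT3. Phosphorylated STAT3 dimers enter the nucleus and act on target genes, among them Socs3, whose product blocks the receptor again. In activated CD4+ T cells IL-6 is known for steering cells towards the Th17 and follicular helper fates, for inducing the cytokine IL-21 and for opposing regulatory T cells.

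Expression is given as a level, log2 of the deposited intensity, so that a difference of 1 is a doubling, and a change is the level with IL-6 minus the level in medium. Group means rest on n = 2 arrays each. Changes were tested in limma over 13007 genes with all 16 arrays sharing 1 estimate of the spread, and genes with an adjusted p under 0.05 are termed called. Median intensities of the 16 arrays lay between 66 and 73. The brightest Stat3 probe set lay at 10.22 to 12.09 on the 4 WT arrays and at 8.40 to 9.13 on the 4 STAT3-deficient arrays given medium or IL-6. The 11 measured T cell markers had a median level of 11.90 on the 4 WT arrays, and Cd4 lay between 9.64 and 10.94. All measured markers of CD8, gamma delta, NK, myeloid, mast, erythroid and platelet cells stayed under 8 on these 4 arrays, and no marker of any type was called. Exceptions among other types were the B cell gene Ighm, at up to 10.74, the epithelial gene Epcam, at up to 10.18, the endothelial gene Pecam1, at 7.11 to 8.68, and the dendritic cell list, in which H2-Ab1 lay at 6.17 on the medium array of replicate 1 and at 9.97 to 11.32 on the other 3. The summed level of the 9 dendritic cell markers was 10.48 and 11.35 in medium and 11.33 and 11.78 with IL-6, and 6 of the 9 stayed under 8. The part of these genes in the results was not tested.

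The 2 replicate numbers differ in the sex of the mice. Xist was at 13.19 and 11.91 on the replicate 1 arrays of medium and IL-6 and at 6.95 and 6.64 on those of replicate 2, whereas the Y-linked Eif2s3y was at 4.0 and 3.91 against 10.50 and 10.98. On these 4 arrays replicate 1 thus read as female and replicate 2 as male, so the replicates of a group did not come from 1 animal. The numbers also differed in the control probe sets of Actb, taken as 5′ level minus 3′ level. In medium and with IL-6 this was -0.5 and -0.11 for replicate 1, against -0.95 and -1.0 for replicate 2. Sex, this Actb difference and replicate number cannot be told apart. Each number nevertheless holds 1 medium and 1 IL-6 array, so IL-6 and medium can be compared within it. The medium array of replicate 1 stands apart from the other 3 in glycolysis and Th2 genes, and the IL-6 array of replicate 1 in respiratory chain genes, as described further on. Because the samples were bulk RNA, fewer cells of a kind and less RNA per cell cannot be told apart.

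IL-6 changed few genes enough to pass the test, and those that passed moved far. The level of 37 of 13007 genes (0.284%) was called different, 29 higher (0.223% of genes tested) and 8 lower (0.0615%). The 29 rose by 1.30 to 6.85 with a median of 2.24, and the 8 fell, with changes of -3.85 to -1.04 and a median of -1.83. The cytokine gene Il21 and the transcription factor gene Maf led the rise, and Dapl1, Lad1 and Tnfsf11 led the fall. With the replicate number as a block, which compares IL-6 and medium within each number, 218 genes passed (1.68%), 157 higher (1.21%) and 61 lower (0.469%), and all 37 were among them. Each of the 37 changed by more than 1 in the same direction in both replicate numbers, and for each both IL-6 arrays lay on 1 side of both medium arrays. The 37 were chosen by a test on these same arrays, so this agreement and that with the block follow in part from the choice. Among the 13007 genes, 1.79% rose and 0.592% fell by more than 1 in both numbers. Over all genes the groups did not overlap for 2514 genes with IL-6 higher (19.3%) and 2468 with IL-6 lower (19.0%). The count leaned on single arrays: it was 3 without the WT medium array of replicate 1, 370 without the WT IL-6 array of replicate 2, of which 301 were lower, and 29 and 32 without the others. The 3 genes that passed without the WT medium array of replicate 1 were Il21, Maf and Hhex, which were called with any 1 of the 4 arrays left out.

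**Figure D1:**
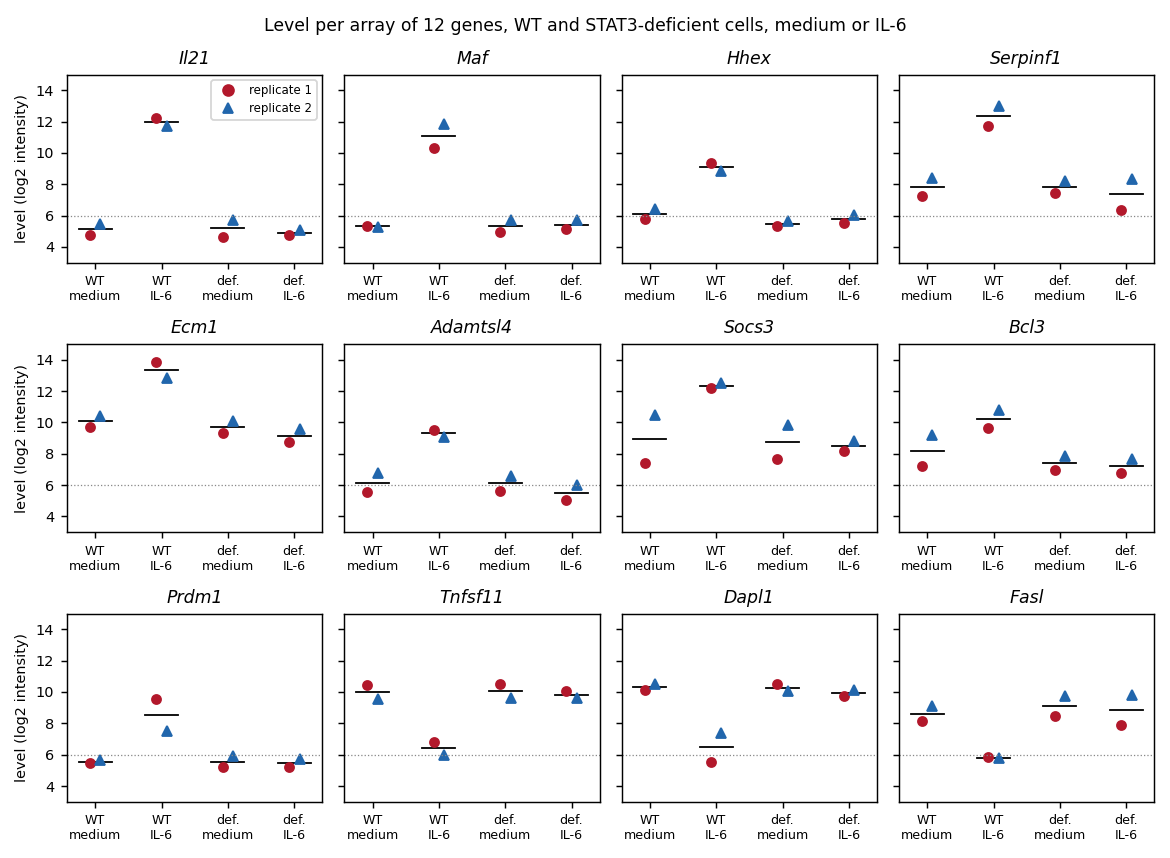
Level (log2 intensity, vertical axis) of 12 genes on the arrays of WT and STAT3-deficient (def.) cells in medium or with IL-6. Points are single arrays, circles for replicate 1 and triangles for replicate 2, bars are means of 2 arrays, and the dotted line marks the level of 6 used as the minimum; Il21 and Maf lie above 10 with IL-6 in WT cells and below 6 in the other 3 groups.

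Il21, which encodes a cytokine of Th17 and follicular helper cells that signals through STAT3 itself, showed the largest change of the 13007 genes. Its level was 4.75 and 5.49 in medium and 12.23 and 11.72 with IL-6. Both medium arrays were near the bottom of the scale and both IL-6 arrays were high, with no overlap. The change was 6.85 (SE 0.53), 115-fold (adjusted p = 5.1e-04, limma), and the other Il21 probe set gave 3.86. Maf, the gene of the transcription factor c-Maf that acts on Il21, Il10 and Il4, read 5.32 and 5.29 in medium and 10.34 and 11.82 with IL-6. It rose by 5.78 (SE 0.47), 54.8-fold (adjusted p = 5.1e-04, limma), and its 5 further probe sets gave 0.40 to 5.67. Since both genes were under the level minimum of 6 in medium, where the array reads mostly background, these folds depend on that background. The mean in medium was under the minimum for 13 of the 29 genes that rose, both included.

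Among genes of transcription factors and chromatin proteins, Hhex, Chd7 and Hlx also rose, and Piwil2 rose as well. Hhex encodes a homeobox factor of blood progenitors and lymphocytes, and its levels were 5.78 and 6.39 in medium and 9.36 and 8.83 with IL-6. It was low on both medium arrays and high on both IL-6 arrays, a rise of 3.01 (SE 0.27), 8.04-fold (adjusted p = 7.3e-04, limma). Chd7, a chromatin remodeller, went from 8.74 and 9.20 to 11.41 and 11.00, a rise of 2.24 (SE 0.37, adjusted p = 0.0307, limma). Hlx, a homeobox factor known from Th1 cells, went from 5.32 and 5.46 to 7.36 and 7.48, a rise of 2.03 (SE 0.30). Piwil2, an Argonaute-family gene best known from the germ line, went from 5.25 and 6.07 to 7.67 and 8.77. In each of these genes the arrays of the groups were well apart, although Hlx and Piwil2 had medium means below the minimum.

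Secreted proteins formed a second set by role. Serpinf1 encodes a secreted serpin also called PEDF, and its levels were 7.28 and 8.41 in medium and 11.71 and 12.98 with IL-6. Both replicate numbers showed the same step, 4.43 and 4.56, and the rise was 4.50 (SE 0.67), 22.6-fold (adjusted p = 0.0193, limma). Ecm1, an extracellular matrix protein needed for Th2 cells to leave lymph nodes, read 9.74 and 10.38 in medium and 13.83 and 12.85 with IL-6, a rise of 3.28 (SE 0.41), 9.69-fold (adjusted p = 0.01, limma). Adamtsl4, a secreted glycoprotein gene, lies next to Ecm1 on chromosome 3 in the RefSeq gene table. It read 5.55 and 6.75 in medium and 9.52 and 9.10 with IL-6, a rise of 3.15 (SE 0.45). For both neighbours the IL-6 arrays lay above the medium arrays, and the step was larger in replicate 1. Without the WT medium array of replicate 1 the change of Serpinf1 was 3.93 (adjusted p = 0.304, limma) and that of Ecm1 2.96 (adjusted p = 0.18, limma).

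Trib2, Cacna1c, Atp6v0d2, Tha1, Moxd1, Acaa1b and Gm17767 also rose. Trib2, a pseudokinase, read 8.59 and 8.93 in medium and 11.42 and 11.52 with IL-6, and rose by 2.71 (SE 0.42). Cacna1c, the pore subunit of an L-type calcium channel, read 4.52 and 4.91 in medium and 7.85 and 6.36 with IL-6, and rose by 2.39 (SE 0.37). The other Cacna1c probe set gave 0.20. Atp6v0d2, a subunit of the vacuolar proton pump, read 4.75 and 4.39 in medium and 6.83 and 7.06 with IL-6, and rose by 2.37 (SE 0.35). Trib2 was well measured in both groups, whereas Cacna1c, Atp6v0d2, Moxd1 and Acaa1b were below the minimum in medium. Tha1, the gene of a threonine aldolase, read 5.98 and 6.81 in medium and 8.90 and 8.80 with IL-6, and rose by 2.46 (SE 0.28; adjusted p = 0.00538, limma). Moxd1, a relative of dopamine beta-hydroxylase, read 5.25 and 5.39 in medium and 9.51 and 7.73 with IL-6, and rose by 3.3 (SE 0.50). Acaa1b, a peroxisomal thiolase, read 4.0 and 4.70 in medium and 7.44 and 6.73 with IL-6, and rose by 2.74 (SE 0.39). It has a close paralogue, Acaa1a, and whether its probes tell the 2 apart was not tested. The long noncoding RNA gene Gm17767 read 5.55 and 6.34 in medium, with a mean of 5.95 below the minimum, and 8.99 and 9.72 with IL-6. It rose by 3.41 (SE 0.40) with nearly equal steps of 3.43 and 3.38 in the 2 numbers.

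The other 13 genes that rose, named here after their values were seen, changed by 1.30 to 2.13. They were the short-chain fatty acid receptor gene Ffar2 (2.13), Tpbg (2.06), the zinc transporter gene Tmem163 (1.97), the small GTPase gene Rab20 (1.90), Dach2 (1.89), the GTPase-activating protein gene Arhgap18 (1.80), the mitochondrial acetyl-CoA synthetase gene Acss1 (1.78), B430306N03Rik (1.75), the Mediator subunit gene Med13l (1.64), the metalloprotease gene Adam8 (1.41), the cytoskeletal adaptor gene Pstpip1 (1.36), Cnp (1.34) and Adprm (1.30). Their adjusted p-values in limma lay between 0.0193 and 0.0448. Acss1 was the only one of the 18 called genes with several probe sets to have one of opposite sign, 1 of its 2 others.

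Tnfsf11, Dapl1 and Lad1 fell most. Tnfsf11 encodes RANKL, the TNF-family ligand that drives osteoclast formation and is made by activated T cells. Its levels were 10.42 and 9.55 in medium and 6.79 and 6.00 with IL-6, a fall in both numbers of nearly the same size, -3.63 and -3.55. The change was -3.59 (SE 0.38), 12.0-fold lower (adjusted p = 0.00384, limma), and -3.16 (adjusted p = 0.0537, limma) without the WT medium array of replicate 1. Dapl1, a gene of naive T cells, read 10.13 and 10.50 in medium and 5.55 and 7.38 with IL-6, a change of -3.85 (SE 0.56; adjusted p = 0.0193, limma). Lad1, which encodes a basement membrane filament protein, read 10.05 and 9.81 in medium and 7.17 and 5.46 with IL-6, a change of -3.61 (SE 0.63; adjusted p = 0.0448, limma). All 3 lay above 9 in medium and between 5.46 and 7.38 with IL-6.

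The other 5 genes that fell stayed well above the minimum with IL-6. The scaffold gene Cnksr3 changed by -1.85 (SE 0.32), the snoRNA host gene Snhg3 by -1.80 (SE 0.30) and the mitochondrial ribosomal protein gene Mrpl13 by -1.45 (SE 0.22). Nudt4, an inositol pyrophosphate hydrolase gene, changed by -1.42 (SE 0.21). The histone chaperone gene Asf1a had the closest replicates, 11.49 and 11.47 in medium and 10.45 and 10.43 with IL-6, a change of -1.04 (SE 0.18; adjusted p = 0.0335, limma). Fasl and Mlf1 passed only with the replicate block. Fasl, the death ligand of activated T cells, read 8.12 and 9.09 in medium and 5.83 and 5.78 with IL-6, a change of -2.80 (adjusted p = 0.0937, and 0.0247 with the replicate block, limma). For Mlf1 the change was -2.66 (adjusted p = 0.0715, and 0.0298 with the replicate block, limma). In both genes the IL-6 arrays were below the medium arrays.

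A panel of 26 genes of the IL-6 pathway and of T helper fates was followed whatever its change. Of the 24 analysed here, Il21 and Maf were called, and Socs3, Bcl3, Ahr and Prdm1 passed only with the replicate block. Prdm1 encodes Blimp-1, a repressor of effector and plasma cells, and read 5.46 and 5.64 in medium and 9.53 and 7.48 with IL-6. Both IL-6 arrays were high, with a change of 2.96 (SE 0.55; adjusted p = 0.0592, and 0.0364 with the replicate block, limma). Ahr, the aryl hydrocarbon receptor of Th17 cells, read 5.52 and 6.00 in medium and 7.47 and 9.77 with IL-6, a change of 2.86 (SE 0.63; adjusted p = 0.0929, and 0.0465 with the replicate block, limma). The other Ahr probe set gave 0.01. For Ahr the larger step was in replicate 2, and for Prdm1 in replicate 1.

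Socs3 and Bcl3 showed how the starting level differed between the replicate numbers. Socs3, the feedback inhibitor of gp130, read 7.39 and 10.46 in medium and 12.17 and 12.54 with IL-6. The IL-6 arrays were alike, the medium arrays were not, and the change within numbers was 4.78 and 2.08. On average it was 3.43 (SE 1.05; adjusted p = 0.201, and 0.0472 with the replicate block, limma), and 1.90 without the WT medium array of replicate 1. Bcl3, an atypical IkB protein that modulates NF-kB, read 7.20 and 9.20 in medium and 9.63 and 10.81 with IL-6, a change of 2.02 (SE 0.74; adjusted p = 0.285, and 0.018 with the replicate block, limma). It was 1.02 without that medium array. Here replicate 2 was higher than replicate 1 in medium and with IL-6 alike.

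The 18 uncalled panel genes include the receptor chains and the lineage factors. The change was 0.44 (SE 0.53) for Il6ra, 0.42 (SE 0.42) for Il6st, 0.62 (SE 0.21) for Jak3 and 0.94 (SE 0.58) for Stat3, where the value without the WT medium array of replicate 1 was 0.05 for Il6ra, 0.75 for Il6st and 0.34 for Stat3. Of the feedback and target genes, Socs1 had a value of 1.07 (SE 0.72), Pim1 of 1.06 (SE 0.73), Batf of 1.25 (SE 0.48) and Irf4 of 0.56 (SE 0.37). Without that medium array Socs1 and Pim1 were both at 0.08, Irf4 at 0.37 and Batf at 0.86. Il10, which c-Maf and Blimp-1 are known to act on, read 4.39 and 5.43 in medium and 8.69 and 6.19 with IL-6. Only the IL-6 array of replicate 1 was high, and the change was 2.53 (SE 0.94; adjusted p = 0.293, limma). Il17a, the signature Th17 cytokine, read 6.27 and 6.09 in medium and 5.95 and 6.25 with IL-6, near the level minimum on all 4 arrays, with a change of -0.08 (SE 0.81). When IL-6 was added to TGFb its change was 4.63. The difference between these changes, -4.71 (SE 1.15), did not pass (adjusted p = 0.613, limma). The Treg factor Foxp3 stayed at 4.39 to 5.09, below the minimum, and the follicular factor gene Bcl6 had a change of -0.09 (SE 0.60). The values were -0.20 (SE 0.20) for Icos and 0.91 (SE 0.37) for Rora. They were 1.63 (SE 1.49) for Tbx21, 1.46 (SE 1.30) for Gata3 and 0.87 (SE 0.74) for Il2ra, and each of these 3, like Socs1 (2.40 and -0.27) and Irf4 (1.22 and -0.11), was higher with IL-6 in replicate 1 and lower in replicate 2.

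Since STAT dimers bind a short palindrome, promoters from RefSeq (build GRCm38.p6; 250 bases before to 50 after each start) were searched for the letters TTCNNNGAA, which read the same on both strands. Of genes that rose, 3 of 25 with a promoter held them (12.0%), as did 0 of 7 that fell, beside 856 of 10466 genes tested (8.18%) and 2582 of the 27025 genes in the table (9.55%). Counted per promoter the share was 9.38% for genes that rose, 6.79% over genes tested and 8.3% over the table. With the replicate block the shares were 18 of 125 genes higher (14.4%) and 5 of 55 lower (9.09%). A match describes letters only, and no match says nothing of STAT3 at that gene. Shown are the 250 bases before the start, 5′ to 3′ on the gene's strand with the match in capitals, of the 3 named genes that passed either test with a rise and held the letters in this part of the window.
Socs3, chr11:117969367-117969616, minus strand: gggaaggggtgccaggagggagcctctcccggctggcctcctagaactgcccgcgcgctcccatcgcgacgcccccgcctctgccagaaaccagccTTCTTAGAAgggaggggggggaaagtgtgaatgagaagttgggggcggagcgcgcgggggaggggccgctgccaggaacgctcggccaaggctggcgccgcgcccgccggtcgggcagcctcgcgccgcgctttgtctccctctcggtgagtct
Moxd1, chr10:24223267-24223516, plus strand: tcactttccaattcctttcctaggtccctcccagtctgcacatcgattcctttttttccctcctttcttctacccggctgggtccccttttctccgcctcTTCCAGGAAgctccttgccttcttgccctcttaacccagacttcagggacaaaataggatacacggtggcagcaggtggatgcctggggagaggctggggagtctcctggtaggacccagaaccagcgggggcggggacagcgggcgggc
Cacna1c, chr6:118757975-118758224, minus strand: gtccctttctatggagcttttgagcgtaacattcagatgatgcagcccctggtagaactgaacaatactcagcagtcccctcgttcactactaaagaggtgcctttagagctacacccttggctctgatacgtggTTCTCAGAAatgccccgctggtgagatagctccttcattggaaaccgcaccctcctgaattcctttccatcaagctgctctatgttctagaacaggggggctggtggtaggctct
The match begins 154 bases before the start in Socs3, 150 in Moxd1 and 115 in Cacna1c, and its 3 middle letters differ among the genes.

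Genes were next followed as 20 lists of known function, each described by its counts and its median change beside the median over all genes, which was -0.00. The lists of T helper fates held the strongest calls, but the lists were chosen with earlier results of these data known. No conclusion on a helper fate was therefore drawn from these calls. Of 27 Th17 genes tested, Il21 and Maf rose, Lgals3 and Ahr passed with the replicate block, and the median change was 0.92, with 23 above 0. That median was 1.22 in replicate 1, 0.53 in replicate 2 and 0.62 without the WT medium array of replicate 1. In both numbers 16 of the 27 lay above 0, beside 3916 of the 13007 genes tested. Over all genes tested 0.223% rose, 1.21% were higher with the replicate block and 49.7% lay above 0. Lgals3, the gene of galectin-3, read 7.76 and 9.31 in medium and 11.42 and 13.17 with IL-6, a change of 3.76 (SE 0.69; adjusted p = 0.0558, and 0.0163 with the replicate block, limma). Of 20 follicular helper genes the same Il21 and Maf rose, with a list median of 0.29, 11 above 0 and 9 below. That median was -0.08 in replicate 1 and 0.51 in replicate 2, and -0.01 to 0.20 without single arrays. Among the uncalled ones Id3, an inhibitor of E proteins, read 10.90 and 8.47 in medium and 6.97 and 8.13 with IL-6, a change of -2.14 (SE 1.12) that came mostly from replicate 1. Of the 15 genes listed as Th2, Ecm1 and its neighbour Adamtsl4 rose, and the median was 1.29. Of 19 Th1 genes Hlx alone rose, and the median was 0.01.

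Of 35 STAT3 targets and feedback genes none was called and 3 passed with the replicate block, Socs3, Prdm1 and Bcl3, while 31 lay above 0 with a median of 0.92. That median was 1.34 in replicate 1, 0.39 in replicate 2 and 0.47 without the medium array of replicate 1, and over all genes 1.21% were higher with the block and 49.7% lay above 0. The 21 genes of the receptor, JAKs and STATs lay between -0.89 (Ptpn11) and 1.28 (Stat2) with a median of 0.42, and none passed either test. Ptpn2, the gene of a phosphatase that acts on JAKs and STATs, had a change of 1.02 (SE 0.46). Among 14 cytotoxic genes none was called. Gzma, a granzyme, read 5.67 and 6.82 in medium and 12.37 and 9.42 with IL-6, a change of 4.65 (SE 1.13; adjusted p = 0.117, and 0.0681 with the replicate block, limma). Both IL-6 arrays were above both medium arrays by a wide but unequal step, 6.69 and 2.60. With the replicate block the protease gene Ctsw, with a change of 2.12 (adjusted p = 0.0939, and 0.0389 with the replicate block, limma), passed as higher and Fasl as lower. Over all genes tested 0.284% were called, and with the block 1.21% were higher and 0.469% lower.

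Adhesion, survival and activation genes gave few calls. Over all genes tested 0.223% were called higher and 0.0615% lower. With the replicate block these shares were 1.21% and 0.469%. Of all genes 49.7% lay above 0 and 50.3% below. Of 36 chemokine receptor and adhesion genes, Cysltr1, a leukotriene receptor gene (2.85), and Selp, which encodes P-selectin (2.67), passed only with the replicate block (adjusted p = 0.0434 and 0.0472, limma). Of 27 regulatory T and TGFb pathway genes, Smad3, which carries the TGFb signal, did so as well, at 7.77 and 9.07 in medium and 9.95 and 10.66 with IL-6 (change 1.88; adjusted p = 0.18, and 0.00136 with the replicate block, limma). Of 34 early activation genes Tnfsf11 fell, and 23 of the 34 lay below 0. Nr4a3, an orphan nuclear receptor gene switched on by antigen receptor signals, had a change of -2.25 (adjusted p = 0.0929, and 0.041 with the replicate block, limma). Its other probe sets gave 0.12 and -0.30. Il2, the T cell growth factor gene, read 11.70 and 9.34 in medium and 9.28 and 7.83 with IL-6, a change of -1.97 (SE 0.98; adjusted p = 0.439, limma). The medium array of replicate 1 was highest and the IL-6 array of replicate 2 lowest. The naive and homing list held Dapl1 as its 1 call, although 17 of its 22 genes lay above 0, among them Il7r (2.00) and Cxcr4 (1.90), both at 0.94 without the medium array of replicate 1. The 32 survival genes had a median of 0.17, the 27 TNF superfamily genes 0.08. The TNF family gene Cd70 read 8.60 on the medium array of replicate 1 and 4.86 to 5.49 on the other 3, a change of -2.05 (SE 1.11).

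**Figure D2:**
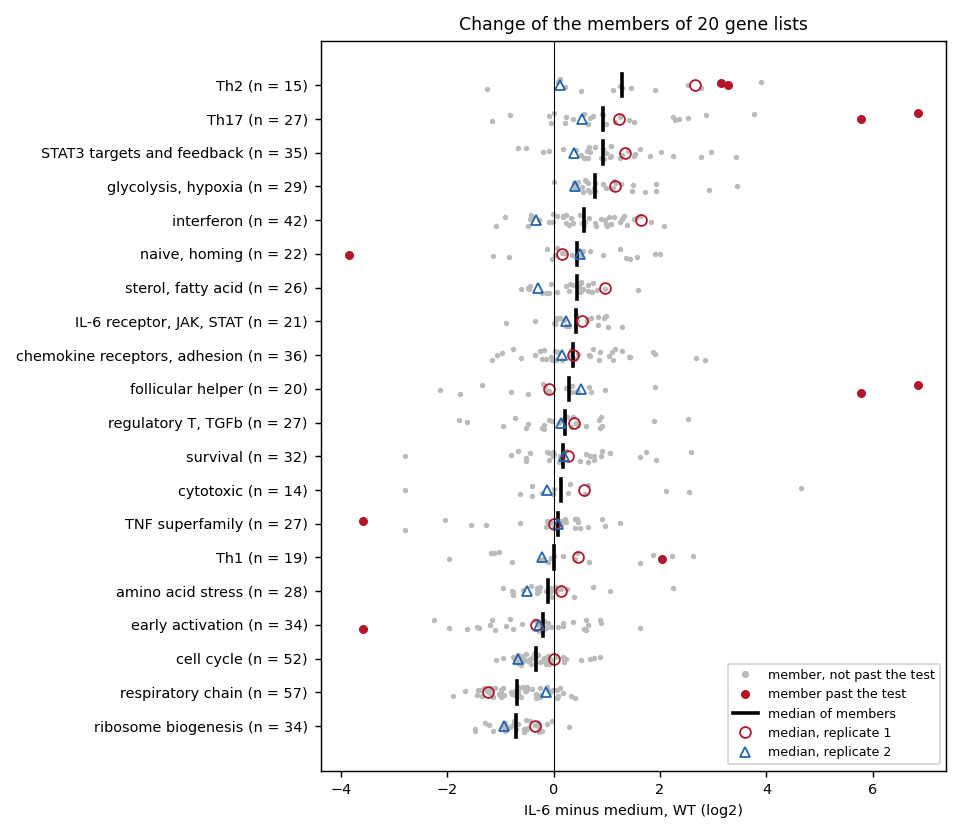
Change (IL-6 minus medium in WT cells, log2, horizontal axis) of the tested members of 20 gene lists, ordered by list median. Dots are genes, filled red where called, bars are list medians, and open circles and triangles are the list medians within replicate 1 and replicate 2; the 2 numbers differ most for the Th2 list, at 2.65 and 0.11.

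In metabolic and growth lists most members lay on 1 side of 0, but none was called. All 29 glycolysis and hypoxia genes lay above 0, 23 of them in both replicate numbers, with a median change of 0.78. Of 57 respiratory chain genes 50 lay below 0, with a median of -0.69, and of 34 ribosome biogenesis genes 33 lay below 0, with a median of -0.71. Over all genes tested 49.7% lay above 0 and 50.3% below, and 0.469% were lower with the replicate block. In both replicate numbers 3916 of the 13007 genes tested lay above 0. In none of these 3 lists did a gene pass the test. The lowest values were those of the complex I gene Ndufa5 (-1.90, SE 0.44), the ATP synthase gene Atp5g1 (-1.66, SE 0.37) and Nop10 (-1.49, SE 0.34), a partner of Nhp2 and Gar1. With the replicate block Nhp2 (-1.48; adjusted p = 0.0722, and 0.0352 with the replicate block, limma) and Gar1 (-1.29; adjusted p = 0.0533, and 0.0268 with the replicate block, limma) passed, both subunits of the H/ACA particles that modify ribosomal RNA. Of 52 cell cycle genes 43 lay below 0 with a median of -0.34, with Gins1 at -0.95 (SE 0.39), and Pola1, of DNA polymerase alpha, passed with the replicate block (-1.09; adjusted p = 0.0798, and 0.0416 with the replicate block, limma).

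These list medians rested unequally on the arrays. The glycolysis and hypoxia list had a median level of 9.85 and 11.60 in medium and 11.52 and 11.97 with IL-6, so that the medium array of replicate 1 was low and the other 3 were alike. Its median change was 1.15 in replicate 1 and 0.40 in replicate 2, and 0.25 without that medium array. The respiratory chain list read 12.00 and 12.08 in medium and 10.85 and 11.87 with IL-6. There the IL-6 array of replicate 1 was low, and the median change was -1.23 in replicate 1, -0.15 in replicate 2 and -0.15 without that array. Ribosome biogenesis read 10.53 and 10.24 in medium and 10.21 and 9.30 with IL-6, with the IL-6 array of replicate 2 lowest, and the median was -0.19 without it. The cell cycle list had a median change of -0.00 in replicate 1 and -0.67 in replicate 2, and 0.05 without that same array.

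**Figure D3:**
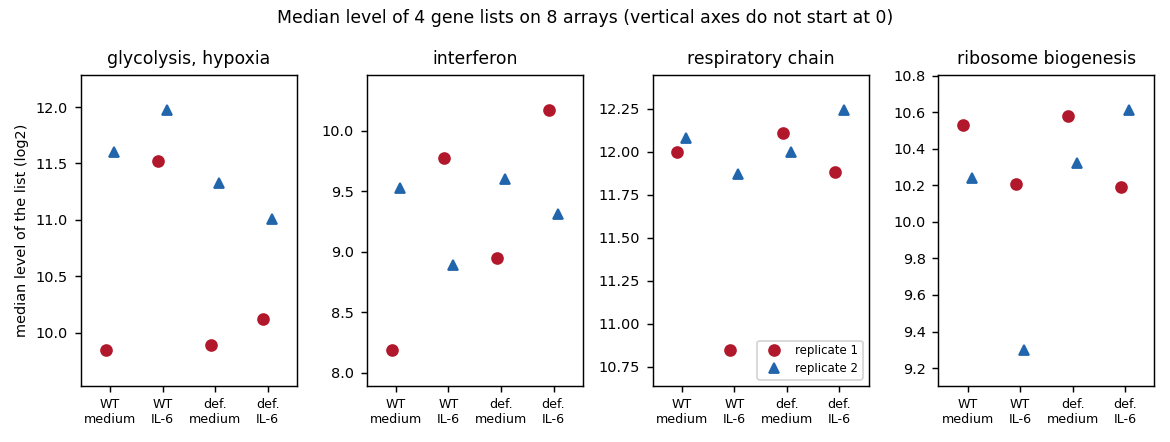
Median level (log2 intensity, vertical axes that do not start at 0) of the members of 4 gene lists on the arrays of WT and STAT3-deficient (def.) cells in medium or with IL-6. Each point is 1 array, circles for replicate 1 and triangles for replicate 2. Both medium arrays of replicate 1 are low for glycolysis and hypoxia, at 9.85 and 9.89. The STAT3-deficient IL-6 array of replicate 1 lies at 10.12 there. The WT IL-6 array of replicate 1 is low for the respiratory chain, at 10.85.

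The median change of the interferon response genes had opposite signs in the 2 replicate numbers. It was 1.64 in replicate 1 and -0.34 in replicate 2, and none of 42 was called. Within the list 11 genes lay above 0 in both numbers and 4 below 0 in both. Among all 13007 genes tested, 3916 lay above 0 in both and 3854 below 0 in both. The sterol and fatty acid list also had medians of opposite sign, 0.97 and -0.29, with 0 of 26 called, and the 28 amino acid stress genes had medians of 0.14 and -0.50. Dhx58, a helicase gene of RNA virus sensing, had a change of 2.07 (SE 0.84). Usp18, an interferon-induced protease gene, read 5.0 and 9.39 in medium and 9.91 and 8.14 with IL-6, a change of 1.83 (SE 1.53). Scd1, a fatty acid desaturase gene, read 6.04 and 10.54 in medium and 9.38 and 9.14 with IL-6, a change of 0.97 (SE 1.94). The change was 1.59 (SE 1.01) for Scd2 and 1.05 (SE 0.99) for Trib3. In Usp18 and Scd1 the medium array of replicate 1 was low and that of replicate 2 the highest or second highest of the 4.

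Across all genes, steps within replicate 1 were larger than within replicate 2. A change past 1 in either direction was found for 1837 genes in replicate 1 (1022 up, 815 down) and for 803 in replicate 2 (459 up, 344 down). In both it was found the same way for 310 genes, 233 up (1.79%) and 77 down (0.592%), which is 16.9% of those of replicate 1 and 38.6% of those of replicate 2. Opposite ways it was found for 33, of which 28 were up in replicate 1 and down in replicate 2 (0.215%) and 5 the other way (0.0384%). The 2 sets of differences correlated at 0.41 across genes, which are not independent replicates, and their SDs were 0.79 and 0.53. A change above 2 in replicate 1 with one within 0.5 of 0 in replicate 2 was seen for 76 genes and a change below -2 for 66, whereas the reverse was seen for 9 and 2.

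**Figure D4:**
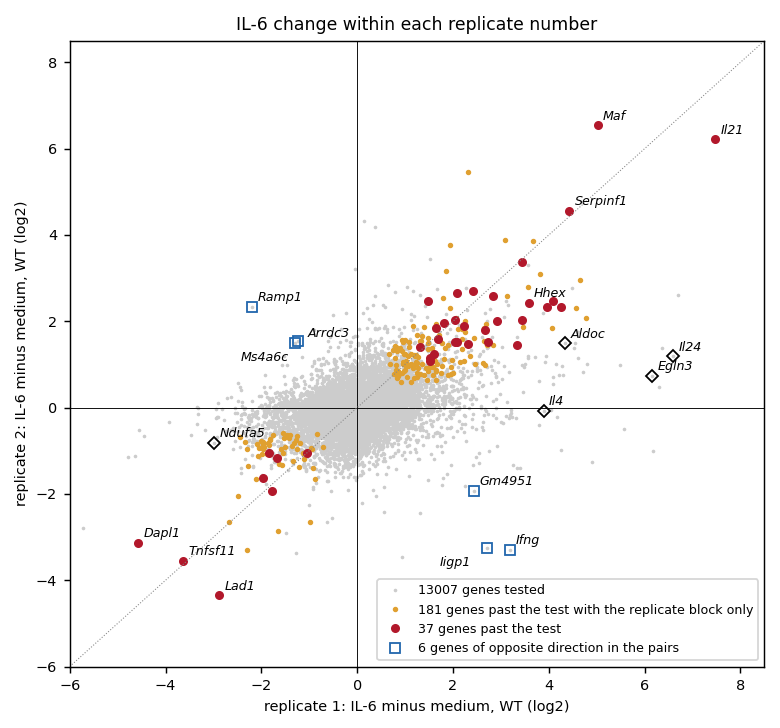
Change (IL-6 minus medium in WT cells, log2) of 13007 genes within replicate 1 (horizontal axis) and within replicate 2 (vertical axis). Red points are the 37 called genes, orange the 181 called with the replicate block only, squares 6 named genes of opposite direction and diamonds 5 named members of gene lists; Il21 and Maf lie far out on both axes, Egln3 on the horizontal axis.

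Several genes with a large mean change showed it mainly in replicate 1. Egln3, a hypoxia-induced prolyl hydroxylase gene, read 6.70 and 12.63 in medium and 12.85 and 13.37 with IL-6, so that its change was 6.15 in replicate 1 and 0.74 in replicate 2. Aldoc, the aldolase C gene, read 7.29 and 11.35 in medium and 11.64 and 12.84 with IL-6. Il24, of the IL-10 family, read 5.32 and 10.09 in medium and 11.92 and 11.27 with IL-6. In each only the medium array of replicate 1 was low, and none passed either test. The STAT3-deficient medium array of replicate 1 was low as well, at 6.44, 7.24 and 5.13. It correlated with the WT medium array of replicate 1 at 0.992 over genes, and the 2 medium arrays of replicate 2 also correlated at 0.992. Other STAT3-deficient arrays of replicate 1 read 9.66, 8.15 and 5.13 with IL-6 and 8.24, 7.82 and 6.23 with TGFb. With both cytokines that number read 11.38, 10.77 and 6.82. Il4 read 5.67 and 9.82 in medium and 9.56 and 9.74 with IL-6, a change of 1.91 (SE 2.29). The Th2 list as a whole had a median change of 2.65 in replicate 1, 0.11 in replicate 2 and 0.23 without the WT medium array of replicate 1. Il12rb2 (2.62), Runx3 (2.22), Nfil3 (2.77), Casp6 (2.58) and Vldlr (2.25) were also lowest on that array, and none passed either test.

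Ifng, the gene of the Th1 cytokine, had opposite signs in the 2 numbers. It read 4.70 and 8.65 in medium and 7.89 and 5.36 with IL-6, a change of 3.19 in replicate 1 and -3.29 in replicate 2. The interferon-induced GTPase gene Iigp1 (2.71 and -3.25) and Gm4951 (2.44 and -1.93) had the same pattern. Ramp1, a receptor accessory gene (-2.20 and 2.34), Ms4a6c (-1.30 and 1.49) and Arrdc3 (-1.23 and 1.55) had the reverse. The mean changes of these 6 genes lay between -0.27 and 0.26, and none was called.

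In STAT3-deficient cells IL-6 changed no gene past the test, and the genes called in WT cells stayed near 0. In limma 0 of 13007 genes were called, also with the replicate block, and 173 had an unadjusted p under 0.05 (1.33%), beside 1643 in WT cells (12.6%). The 29 genes that rose in WT cells had changes between -0.62 and 0.40 with a median of -0.04, 13 of them above 0. The 8 that fell had changes between -0.76 and -0.02 with a median of -0.26, and over all genes 64.2% lay below 0. Il21 read 4.64 and 5.73 in medium and 4.75 and 5.09 with IL-6 in these cells, a change of -0.26 (SE 0.53). Maf read 4.95 and 5.73 in medium and 5.13 and 5.73 with IL-6. Tnfsf11 read 10.54 and 9.62 in medium and 10.03 and 9.62 with IL-6, so that it stayed at the WT medium level.

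The difference between the 2 genotypes' responses was tested directly. It was called for 3 genes (0.0231%), Il21 with a difference of 7.11 (SE 0.74; adjusted p = 0.0125, limma), Maf with 5.69 (SE 0.67; adjusted p = 0.0205, limma) and Tha1 with 3.04 (SE 0.39; adjusted p = 0.0341, limma). With the replicate block it was called for 17 (0.131%), 12 of them among the 37. Among those were Hhex (2.70; adjusted p = 0.0504, and 0.0438 with the replicate block, limma), Ecm1 (3.83; adjusted p = 0.0849, and 0.0483 with the replicate block, limma) and Tnfsf11 (-3.33; adjusted p = 0.14, and 0.0458 with the replicate block, limma). The count was 119 without the WT IL-6 array of replicate 2 and 0 without any 1 of the WT medium array of replicate 1, the STAT3-deficient medium array of replicate 2 and the 2 STAT3-deficient IL-6 arrays. All 37 had an unadjusted p under 0.05 for the difference, against 7.78% of all genes, but they were chosen by the WT change that is part of it.

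Most of the 37 genes had a change of the same sign when IL-6 was added to TGFb, measured on 4 other arrays. There 66 genes were called (0.507%), 59 higher (0.454%) and 7 lower (0.0538%), and 10 genes were called the same way in both settings, 27.0% of the 37 and 15.2% of the 66. The count of 66 was 12 to 17 without any 1 of the 4 arrays with TGFb. Of the 29 genes that rose with IL-6 alone 26 lay above 0 (median 0.97), and of the 8 that fell 7 lay below 0 (median -1.01), beside 42.8% above and 57.2% below 0 over all genes. Il21 changed by 6.80 with TGFb and 6.85 without. Serpinf1 changed by 3.84 (SE 0.67) and Gm17767 by 4.48 (SE 0.40), while Tnfsf11 changed by -3.24 (SE 0.38) and Lad1 by -4.07 (SE 0.63). Maf changed by 2.63 (SE 0.47), from 9.92 and 9.90 with TGFb to 12.58 and 12.51 with both. It was thus already high with TGFb alone, and the difference between its changes, 3.14 (SE 0.67), did not pass (adjusted p = 0.477, limma).

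Hhex and Gpr15 were the 2 genes (0.0154%) whose IL-6 response differed between the settings. The change of Hhex was 3.01 without TGFb and -0.17 with it, where it read 5.95 and 5.93 with TGFb and 5.95 and 5.58 with both. All 4 TGFb arrays were below the minimum of 6, and the difference was 3.18 (SE 0.38; adjusted p = 0.021, limma). Gpr15, a homing receptor gene for the large intestine, had a change of -0.19 without TGFb and 3.55 with it, a difference of -3.74 (SE 0.42; adjusted p = 0.021, limma). Moxd1, Cacna1c, Ffar2 and Adam8 rose with IL-6 alone and had changes of 0.63, -0.01, 0.03 and -0.05 with TGFb, but the tests of these differences did not pass (adjusted p = 0.665, 0.511, 0.511 and 0.477, limma). The count of 2 was 142 without the WT IL-6 array of replicate 2 and 1 without the WT medium array of replicate 2 or the WT TGFb array of replicate 1. It was 0 without any 1 of the other 5 WT arrays.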

How the data were processed

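RNA of 16 cultures was isolated (MirVana), biotin-labelled (MessageAmpII) and hybridised to 1 Affymetrix array each, per the labels' protocols. Per the submitters' processing notes, the authors used RMA to summarise the probes; which version is not given in the sources used here. What the authors deposited is linear intensity in whole numbers, and how RMA's log2 output became linear is not given. They were not normalized again, and the log2 scale was taken of the deposited intensity with no pseudocount. Low values therefore come in coarse steps, and precision is limited by having 2 arrays a group.

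Of 45101 probe sets, 34945 had exactly 1 symbol in the platform annotation, 932 several and 9160 none, and 64 were controls. Of the 34945, 34741 matched the RefSeq gene table (GRCm38.p6) by Entrez number and the rest kept the annotation's symbol. A gene was read by its probe set of highest mean, and 13007 of 18193 genes that reached log2 6 on at least 2 of 16 arrays were tested; 5186 were set aside. limma 3.58.1 in R 4.3.3 fitted 8 group means to the 16 arrays (8 residual and 3.27 prior degrees of freedom), with two-sided tests whose p-values were adjusted over the 13007 genes of each comparison (Benjamini-Hochberg). The procedure was tested on simulated data whose arrays varied independently, without the shared deviations of same-numbered arrays described below. Figures used matplotlib 3.10.9 in Python 3.11.15. With 2 arrays a group, an exact permutation test of 1 gene cannot go below p = 0.333.

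Same-numbered arrays deviated together: over 28 pairs of groups their deviations from the group means correlated at 0.11 to 0.86 (median 0.33; 0.35 for WT IL-6 and medium). The numbers, taken from the sample titles, thus pair the samples, although what they stand for is not stated, and the fit with the replicate number as a block (7 residual degrees of freedom) is given where it changes a call.

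Named are up to 15 called genes each way by size of change with groups that do not overlap, filled to 10 from the fit with the replicate block; a panel of 26 genes; of each list up to 4 called members and 2 others with the largest change; up to 5 genes each way in the tests of a difference; and up to 3 each way of opposite direction in the replicate numbers. The members and lists were chosen with earlier results of these data known. Genes without a probe set of exactly 1 symbol were not analysed here.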

Additional observations from a re-analysis of the deposited data

Results flagged for a closer look

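The tests of a difference between IL-6 responses singled out 5 genes. In the comparison of genotypes the response in WT cells exceeded that in STAT3-deficient cells by 7.11 for Il21 (6.85 against -0.26), by 5.69 for Maf (5.78 against 0.09) and by 3.04 for Tha1 (2.46 against -0.57), with adjusted p = 0.0125, 0.0205 and 0.0341 in limma. In the comparison of settings in WT cells the response without TGFb minus that with TGFb was 3.18 for Hhex (3.01 against -0.17) and -3.74 for Gpr15 (-0.19 against 3.55), each with adjusted p = 0.021 in limma. The causes were not tested.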

How the results depend on the processing

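In WT cells 37 genes were called for IL-6 against medium. The count was 141 at an adjusted p under 0.1, 218 with the replicate block, 12 with array weights, 15 without 2 STAT3-deficient arrays of replicate 1 (TGFb, with or without IL-6), 3 with the 8 WT arrays alone, 0 with the 4 arrays alone and 7 with these and the replicate block. The array weights came out equal for the 2 arrays of each group, 0.61 for WT IL-6 and 1.03 for WT medium. They thus weighted whole groups and tell nothing of single arrays. Leaving out both medium arrays of replicate 1, chosen after seeing the data, left 4. Leaving out single arrays gave 3 to 370, and the other alternatives stayed within 1.5 times. STAT3-deficient cells gave 0 under all alternatives run. The 3 genes that differed between genotypes became 17 with the replicate block, 0 with the block and the Actb 5′ minus 3′ difference, 1 with a further quantile normalization, and 0 to 119 without single arrays. The 66 genes of IL-6 added to TGFb became 141 with the replicate block, 409 with array weights and 12 to 17 without single arrays. The 2 genes that differed between settings became 1 with the block and the Actb difference, 1 with quantile normalization, 6 with log2 of the value plus 32, 6 without the 2 STAT3-deficient arrays, 0 with the WT arrays alone and 0 to 142 without single arrays. The cause was not tested.

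Of 453 values of the 24 called named genes under alternatives, 281 kept the call, 172 missed the threshold and 0 reversed; of 1197 values of the 63 uncalled, 30 passed and 38 reversed. With the replicate block and the Actb difference the sign turned for Ifng (0.42), Foxp3 (-0.12), Ramp1 (-0.05) and Ms4a6c (-0.19), with quantile normalization for Ifng (0.01) and with the mean of probe sets for Ramp1 (-0.01). Without both medium arrays of replicate 1 it turned for Il17a (0.01), Bcl6 (0.52), Tbx21 (-0.56), Il4 (-0.16), Usp18 (-0.37), Scd1 (-1.28), Trib3 (-0.14) and Gm4951 (-0.97). Without single arrays the values that turned ranged as follows: Il6st -0.01 to 0.86, Il17a -0.22 to 0.07, Il2ra -0.17 to 1.92, Gm4951 -0.97 to 1.49, Il6ra -0.45 to 1.34, Ifng -2.02 to 1.93, Gpr15 -0.38 to 0.00, Iigp1 -1.87 to 1.33, Ramp1 -1.13 to 1.27, Ms4a6c -1.20 to 1.38, Arrdc3 -0.64 to 0.95, Bcl6 -0.69 to 0.52, Tbx21 -0.56 to 3.82, Il4 -0.16 to 3.98, Usp18 -0.37 to 4.02, Scd1 -1.28 to 3.22 and Trib3 -0.14 to 2.24.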
